A study of Sus scrofa with 4 samples.

Results

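The 9 genes described here write, copy, read or erase 5-methylcytosine in DNA, namely DNMT1, DNMT3A, DNMT3B, UHRF1, DPPA3, TET1, TET2, TET3 and TDG. They were taken by their symbol from a table that lists FPKM, a level scaled to transcript length and library size, for 16050 genes, and each symbol matched 1 row. RNA had been sequenced from porcine (Sus scrofa) oocytes at metaphase II, the stage at which a mature egg waits for fertilization. The oocytes came from slaughterhouse ovaries and were matured in culture for 44 h, either in plain maturation medium (Control) or in the same medium with 25 μg/mL Cu, given as copper sulfate (Cu). All 4 libraries carried hormones, EGF and follicular fluid in the medium, and each was a pool of 3 oocytes, so an effect in single oocytes cannot be seen. Control replicates 1 and 2 and Cu replicates 1 and 3 are used. The methods describe 3 libraries per group, and the libraries that complete the groups enter only through the authors' mean FPKM of each group.

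DNA methylation in a cell has a writing, a copying and an erasing arm. DNMT3A and DNMT3B place new methyl groups on CpG sites, which in the female germline happens while the oocyte grows, and DNMT1 copies the pattern onto the new strand after replication, guided by UHRF1, which binds hemimethylated DNA. The TET enzymes oxidise 5-methylcytosine, and TDG cuts out the oxidised bases so that base excision repair can put back plain cytosine. DPPA3, also called STELLA, is a maternal protein that in mouse limits UHRF1 on oocyte chromatin and shields the maternal genome from TET3 after fertilization. A mature oocyte hardly transcribes, so its mRNA is mostly a store laid down during growth.

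Which libraries are Cu rests on the labels alone, and they are in doubt. ATP5PF, NDUFB3, NDUFAB1 and NDUFA13, which are respiratory genes, had higher FPKM in both libraries labelled Cu than in both labelled Control. The study reports them as lower after Cu, by its RNA sequencing and by quantitative RT-PCR. It also reports more genes raised than lowered after Cu. With the labels as given, 477 genes were higher and 122 lower in Cu at an unadjusted p of 0.05 in limma's test, unlike the study's limit. This excess depended on the scaling of the libraries, with 352 higher and 305 lower after quantile normalization. If the labels were exchanged, the sign of every difference of Cu minus Control given here would turn, while the levels and their order would stay.

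The labelled cell type was checked next. All 12 oocyte markers had values and were tested, and their summed FPKM was 4290 and 5685 in Control 1 and 2 and higher in both Cu libraries, at 7693 and 5853 in Cu 1 and 3. The part of this difference in the differences given here was not tested. Of 15 cumulus and granulosa markers 10 had values, with sums between 1.07 and 2.66 FPKM and AMH at 0 in each library, and of 5 leukocyte markers only PTPRC did, at 0.09 to 0.32 FPKM. Cu 1 stood apart, with 9364 genes reaching 1 FPKM, while Control 1, Control 2 and Cu 3 had 7923, 8162 and 8122 such genes. Across genes, its log2(FPKM + 1) had Pearson correlations of 0.918 to 0.923 with the other libraries, which had 0.959 to 0.976 among themselves. The depth of each library is unknown, since the number of reads cannot be recovered from these values.

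In the mature oocyte these genes spanned a wide range of the transcriptome. DPPA3 and DNMT1 were among the most abundant mRNAs in every library, DNMT3A and DNMT3B were at intermediate levels, and UHRF1 and TET3 were low but still above most genes with values. TET2 was between rank 6594 and 9649 of 16050 and TET1 between rank 8712 and 11503, in the middle of the table, and TDG was the lowest, between rank 11416 and 14131. In Control 1 and Cu 1 TDG was at 0 FPKM and tied for last with all other genes at 0. Its ranks there, 13258 and 14131, are the first place of the tie. None of the 7 genes that could be tested passed the limit for a difference between Cu and Control, and the 95% interval of each, given with its values, is wide. FPKM is scaled to transcript length, so levels can be set against each other between genes, within the limits of the transcript models used. Since cDNA was primed from the poly(A) tail, fewer transcripts and shorter tails cannot be told apart, nor can fewer cells and less RNA per cell.

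**Figure D1:**
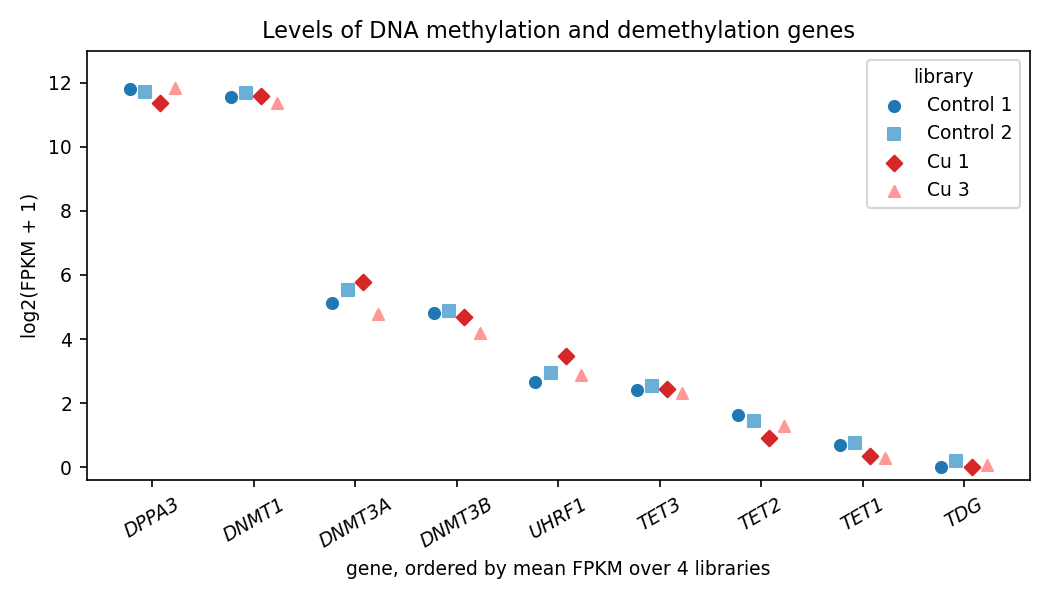
Level of each gene as log2(FPKM + 1) on the vertical axis, genes on the horizontal axis in the order of their mean FPKM, 1 point per library (blue, Control 1 and 2; red, Cu 1 and 3). DPPA3 and DNMT1 lie between 2649 and 3654 FPKM, and no point of any other gene exceeds 54.0 FPKM.

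DPPA3 (identifier 100511328, chromosome 5, 62861492 to 62868131 in Sscrofa11.1) had the highest level. It was at 3562 and 3322 FPKM in Control 1 and 2 against 2649 and 3654 FPKM in Cu 1 and 3. The Cu libraries were the lowest and the highest of the 4, so the groups overlapped. Ranked among all 16050 genes, DPPA3 was between place 15 and place 24. Its difference of Cu minus Control in mean log2(FPKM + 1) was -0.14 (standard error 0.25, 95% interval -0.77 to 0.48, adjusted p = 0.912 in limma's test). Among the 4 libraries the sign of this difference rested on Cu 1, for without that library it was 0.087. By the authors' means, 3944 for Control and 3461 for Cu, the difference was -0.19. DPPA3 has processed copies in several mammalian genomes, and the counting may have split its reads with them.

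DNMT1 (identifier 606746, chromosome 2, 68981564 to 69040364) was next, with 2986 and 3304 FPKM in Control 1 and 2 against 3065 and 2671 FPKM in Cu 1 and 3. The groups overlapped, with Cu 1 between the Control libraries and Cu 3 below them. Its rank was between 16 and 26, and the ranges of DPPA3 and DNMT1 overlapped, with mean levels of 3297 and 3007 FPKM over the 4 libraries. The difference of Cu minus Control was -0.13 on the log2(FPKM + 1) scale (standard error 0.23, 95% interval -0.69 to 0.42, adjusted p = 0.909 in limma's test). Oocytes are known to use their own first exon of DNMT1, and values per gene do not separate such isoforms.

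The de novo enzymes followed at a wide distance. The mean FPKM of DNMT1 was 75.5 times that of DNMT3A (identifier 100037301, chromosome 3, 113501972 to 113609148). DNMT3A was at 33.8 and 44.8 FPKM in Control 1 and 2 against 54.0 and 26.6 FPKM in Cu 1 and 3. As for DPPA3, both extremes were Cu libraries, here with Cu 1 as the highest. Its difference was -0.037 (standard error 0.43, 95% interval -1.09 to 1.01, adjusted p = 0.988 in limma's test). This value changed sign to 0.16 without Control 2 and to 0.46 without Cu 3, and by the authors' means, 34.2 for Control and 36.4 for Cu, it was 0.089.

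DNMT3B (identifier 100302109, chromosome 17, 36345715 to 36386076) was at 27.0 and 28.3 FPKM in Control 1 and 2 against 24.8 and 17.2 FPKM in Cu 1 and 3. Both Cu libraries lay below both Control libraries, Cu 1 by little and Cu 3 by more. The difference was -0.40 (standard error 0.34, 95% interval -1.24 to 0.44, adjusted p = 0.807 in limma's test), and without Cu 3 it was -0.15. The authors' mean was 24.9 for Control, under both Control libraries used here and level with Cu 1, and 18.7 for Cu. DNMT3A was above DNMT3B within every library, by ratios of 1.25 and 1.58 in Control 1 and 2, and 2.17 and 1.55 in Cu 1 and 3. The ranges of the 2 genes over the libraries overlapped.

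As a share of the summed FPKM of the 3 methyltransferases, DNMT1 made up 98.0% and 97.8% in Control 1 and 2, and 97.5% and 98.4% in Cu 1 and 3. The share of DNMT3B was 0.885% and 0.839% in Control, and 0.790% and 0.633% in Cu. Such shares do not change when a library is multiplied by a factor, though quantile normalization can change them. An exact two-sided permutation test gave p = 1 for the share of DNMT1 and p = 0.333 for that of DNMT3B, which is the smallest p that 2 against 2 libraries allow. DNMT3L, the inactive cofactor that stimulates the de novo enzymes in the mouse germline, had no values in the table.

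UHRF1 (identifier 100511003, chromosome 2, 73898061 to 73937727) was low beside its partner, with 5.33 and 6.64 FPKM in Control 1 and 2 against 10.1 and 6.32 FPKM in Cu 1 and 3. Cu 1 was the highest library and Cu 3 lay between the Control libraries. UHRF1 was the only tested gene of the 9 with a higher mean log2(FPKM + 1) in Cu, by 0.38 (standard error 0.40, 95% interval -0.59 to 1.35, adjusted p = 0.838 in limma's test). Without Cu 1 the difference was 0.074. For each unit of UHRF1 FPKM there were 560 and 498 units of DNMT1 in Control 1 and 2, and 303 and 423 in Cu 1 and 3. These ratios did not overlap between the groups, at p = 0.333 in the exact permutation test, and the authors' means gave ratios of 483 and 414. UHRF2, the paralog of UHRF1, was far more abundant, with 888 and 779.7 FPKM in Control 1 and 2 against 976 and 899 FPKM in Cu 1 and 3. Its FPKM was 96.4 to 167 times that of UHRF1 in the same library.

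Among the erasers TET3, the oxidase of the zygote, had the highest level. TET3 (identifier 100520484, chromosome 3, 68918896 to 69020406) was at 4.33 and 4.85 FPKM in Control 1 and 2 against 4.40 and 3.97 FPKM in Cu 1 and 3. The groups overlapped, and the 4 libraries had the smallest spread of any of the 7 tested genes (SD 0.096 on the log2(FPKM + 1) scale). The added 1 shrinks the spread at such low levels, and the far more abundant DNMT1 was next with an SD of 0.13. The difference was -0.11 (standard error 0.35, 95% interval -0.97 to 0.76, adjusted p = 0.953 in limma's test). The authors' mean for Cu, 3.59, was below both Cu libraries used here, and that for Control was 4.53.

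TET2 (identifier 100521465, chromosome 8, 116413253 to 116546976) was at 2.11 and 1.73 FPKM in Control 1 and 2 against 0.86 and 1.43 FPKM in Cu 1 and 3. Both Cu libraries were below both Control libraries, and Cu 1 was the lowest. The difference was -0.45 (standard error 0.35, 95% interval -1.31 to 0.40, adjusted p = 0.790 in limma's test), and -0.26 without Cu 1. The authors' means were 1.76 for Control and 1.44 for Cu.

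TET1 (identifier 100625859, chromosome 14, 71675671 to 71812732) stayed under 1 FPKM, the level required in at least 2 libraries for a test. It was at 0.63 and 0.69 FPKM in Control 1 and 2 against 0.27 and 0.21 FPKM in Cu 1 and 3. The Cu libraries were below the Control libraries with little spread in either group. The difference was -0.42 on the log2(FPKM + 1) scale, which shrinks differences at such low values. When the filter was left out, limma's test gave TET1 an unadjusted p of 0.037, and 0.818 after adjustment. The authors' means were 0.76 for Control and 0.64 for Cu, the latter above both Cu libraries used here, and by these means the difference was -0.10.

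TDG (identifier 100155184, chromosome 5, 80473233 to 80492295) was listed at 0 FPKM in Control 1 and Cu 1, and at 0.13 and 0.05 FPKM in Control 2 and Cu 3. At this level no comparison between the groups could be made, and a value of 0 does not show that the transcript was absent. By range over the libraries, UHRF1, TET3, TET2, TET1 and TDG followed each other without overlap, in this order.

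**Figure D2:**
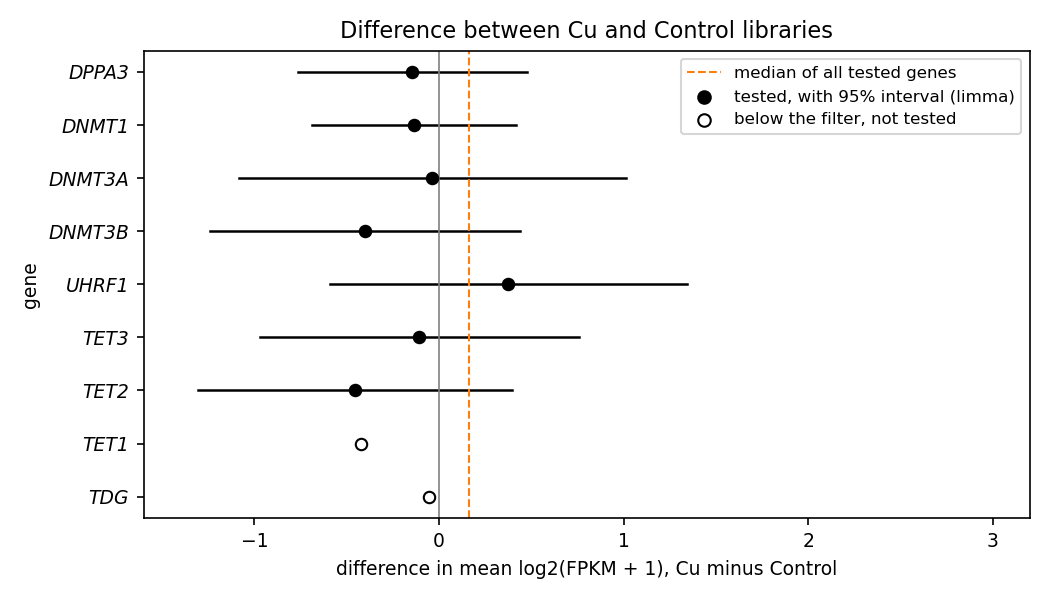
Difference in mean log2(FPKM + 1), Cu minus Control, on the horizontal axis for each gene on the vertical axis. Filled points are tested genes with the 95% interval from limma, open points are genes below the filter, and the dashed line is the median of all tested genes at 0.16. All 7 intervals include 0, and UHRF1 at 0.38 is the only point to the right of 0.

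Summed over TET1, TET2 and TET3, the FPKM was 7.07 and 7.27 in Control 1 and 2, and 5.53 and 5.61 in Cu 1 and 3. The groups did not overlap and were closer within than between, but with 2 libraries each the exact permutation test gave p = 0.333, its smallest possible value. The Cu mean was lower by -0.36 on the log2 scale, between -0.34 and -0.38 with any 1 library left out, and between -0.44 and -0.72 under other scalings of the libraries. The authors' means summed to 7.06 for Control and 5.67 for Cu, a log2 ratio of -0.32. Within the sum, TET3 took 61.2% and 66.7% in Control 1 and 2, and 79.6% and 70.8% in Cu 1 and 3, while TET1 took 8.91% and 9.49% in Control, and 4.88% and 3.74% in Cu. Both shares were separated between the groups, each at p = 0.333 in the exact permutation test. The authors' means did not show this difference in shares, with 64.2% for Control and 63.3% for Cu for TET3, and 10.8% and 11.3% for TET1.

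**Figure D3:**
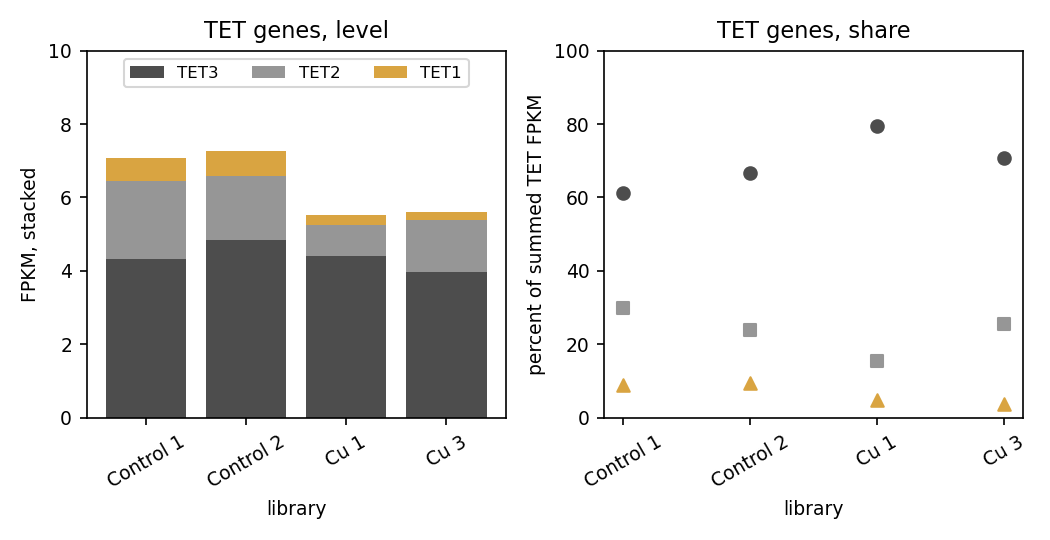
FPKM of TET3, TET2 and TET1 stacked for each library (left) and the share of each in their sum in percent (right). The stacked level is 7.07 and 7.27 FPKM in the Control libraries and 5.53 and 5.61 FPKM in the Cu libraries, and TET3 is the largest share in each library.

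Set against the sum of the 3 DNMT genes, the TET sum was small, with 431 and 465 units of DNMT for each unit of TET in Control 1 and 2, and 569 and 484 in Cu 1 and 3. The DNMT sum was 3047 and 3377 FPKM in Control 1 and 2 against 3144 and 2715 FPKM in Cu 1 and 3, and the groups overlapped, with a log2 ratio of -0.13. They were separated, with Cu lower, after median-of-ratios scaling (-0.38) and upper-quartile scaling (-0.34). The ratio was higher in both Cu libraries (p = 0.333 in the exact permutation test), but after quantile normalization Cu 3, with 429, was within the range of Control, 330 to 439.

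Of the 7 tested genes, 6 had a lower mean log2(FPKM + 1) in Cu and 1 a higher mean, with a median difference of -0.13. Over all 8541 tested genes 3047 were lower and 5494 higher, with a median of 0.16. With the labels exchanged the 7 genes would be 6 higher and 1 lower, with a median of 0.13. The median of the 7 was -0.38 after median-of-ratios and -0.34 after upper-quartile scaling. It was -0.21 after scaling to equal sums and -0.15 after quantile normalization. None passed an unadjusted p of 0.05, a limit passed by 7.01% of all tested genes (599), and none passed an adjusted p of 0.05, as was the case for 0% of all tested genes. Both Cu libraries lay below both Control libraries for DNMT3B and TET2, 2 of the 7, and above them for none. Over all tested genes 13.4% lay below and 25.4% lay above. The median of all genes moved with the scaling, from 0.16 as deposited to -0.042 after median-of-ratios scaling and -0.067 after quantile normalization. Relative to the median of all tested genes, the differences ran from -0.62 for TET2 to 0.21 for UHRF1. The count of 6 lower and 1 higher was the same under each of the 4 other scalings. All 4 lowered the median of all tested genes, so a gene already lower could hardly turn. The count was 5 lower and 2 higher without Control 2, without Cu 1 or without Cu 3.

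Further genes of the pathway came from 9 hand-written lists with 97 genes, of which 64 were tested. An unadjusted p of 0.05 was passed by 4 of the 64, or 6.25%, 2 of them higher and 2 lower in Cu, and an adjusted p of 0.05 by none. The Cu libraries were separated from Control upward in 25% of the 64, and downward in 18.8%. These shares stood beside the 7.01%, 25.4% and 13.4% of all tested genes given above. Leaving out 1 library turned the sign of the median in 8 of the 9 lists, all but the imprint list.

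**Figure D4:**
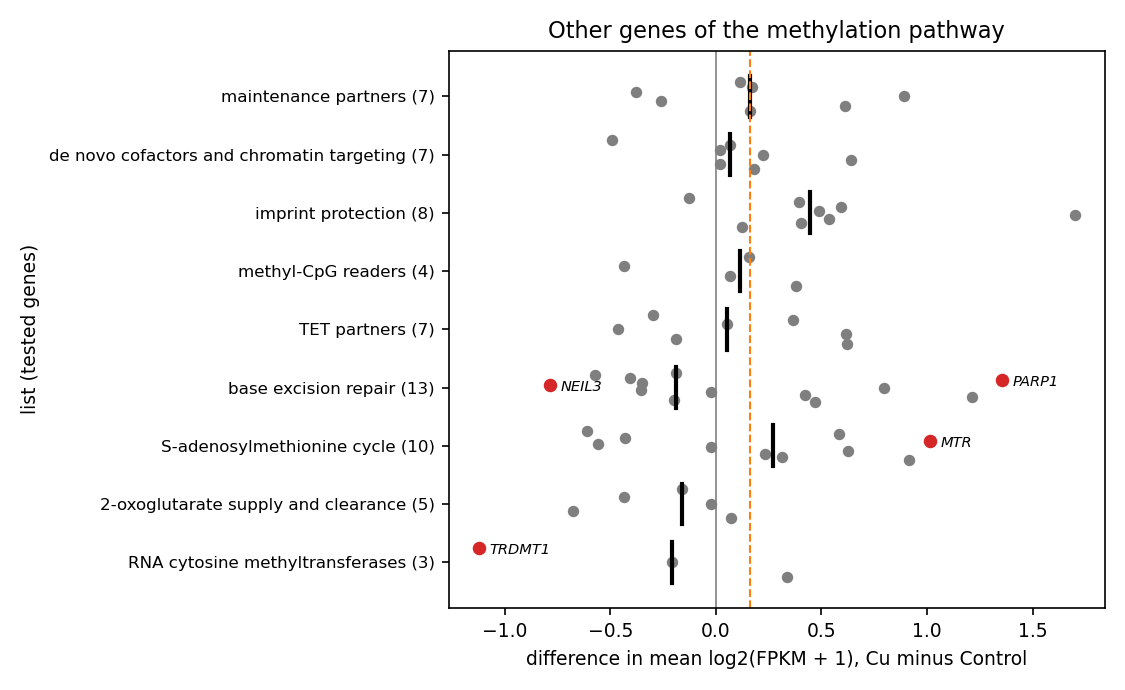
Difference in mean log2(FPKM + 1), Cu minus Control, on the horizontal axis for the tested genes of 9 lists on the vertical axis, with the number tested in parentheses. Red points passed an unadjusted p of 0.05 in limma, black bars are list medians, and the dashed line is the median of all tested genes, 0.16. The named genes are NEIL3 and TRDMT1 on the lower side, and PARP1 and MTR on the higher side.

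Base excision repair, which completes demethylation after TDG, had 13 tested genes of 15, with a median difference of -0.19, 1 gene past the unadjusted limit on each side. NEIL3, a DNA glycosylase and the most abundant gene of this list, was at 246 and 243 FPKM in Control 1 and 2 against 162 and 123 FPKM in Cu 1 and 3. Its difference was -0.79 (standard error 0.28, unadjusted p = 0.032 and adjusted p = 0.656 in limma's test). PARP1, which senses DNA strand breaks, was at 1.90 and 5.22 FPKM in Control 1 and 2 against 8.19 and 11.8 FPKM in Cu 1 and 3, a difference of 1.36 (standard error 0.49, with limma's adjusted p = 0.656). Its Control libraries differed between themselves by more than 2 times, and without Control 1 the difference was 0.80. Like NEIL3, the other DNA glycosylases of this list were measured at higher levels than TDG. NEIL1 had between 17.0 and 32.95 FPKM, and MBD4, a thymine glycosylase of the same reaction type as TDG, between 11.2 and 20.6 FPKM, with overlapping groups for both genes. SMUG1, between 0.45 and 1.04 FPKM, and NEIL2, between 0.57 and 2.50 FPKM, were low.

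Among RNA cytosine methyltransferases 3 of 6 genes were tested, with a median of -0.21, which ran from -1.02 without Cu 3 to 0.24 without Control 2. TRDMT1, also called DNMT2, resembles the DNA methyltransferases in sequence but methylates transfer RNA. It was at 97.5 and 83.4 FPKM in Control 1 and 2 against 29.6 and 56.3 FPKM in Cu 1 and 3, which was above DNMT3A in all libraries but Cu 1. The groups did not overlap, and the difference was -1.12 (standard error 0.39, unadjusted p = 0.028 and adjusted p = 0.656 in limma's test). Leaving out Cu 1 moved it to -0.67, and the authors' means were 88.5 for Control and 53.5 for Cu.

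The cycle that supplies S-adenosylmethionine, the methyl donor, had 10 tested genes of 20, with a median of 0.27, which was -0.097 without Cu 1 and 0.035 to 0.22 under other scalings. MTR, methionine synthase, was at 0.70 and 1.18 FPKM in Control 1 and 2 against 3.23 and 2.57 FPKM in Cu 1 and 3. Its difference was 1.01 (standard error 0.35, unadjusted p = 0.028 and adjusted p = 0.656 in limma's test). TYMS, thymidylate synthase, which draws on the same folate pool, was the most abundant gene of this list, with 503 and 486 FPKM in Control 1 and 2 against 373 and 281 FPKM in Cu 1 and 3. Its difference was -0.61 (standard error 0.27, with limma's adjusted p = 0.708). It missed the unadjusted limit with the values as deposited but passed it in 5 of 11 alternatives, the 4 other scalings and the fit without Cu 1. Genes of 2-oxoglutarate, the cofactor of the TET enzymes, had a median of -0.16 over 5 tested genes of 9. IDH1, the cytosolic enzyme that makes it, was at 39.6 and 56.9 FPKM in Control 1 and 2 against 23.4 and 36.6 FPKM in Cu 1 and 3, a difference of -0.68 (standard error 0.38).

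The remaining lists had no gene past the unadjusted limit. Partners in maintenance had 7 tested genes of 8 and a median of 0.16. PCNA, the replication clamp that recruits DNMT1, was the most abundant of them, with 4927 and 3885 FPKM in Control 1 and 2 against 3077 and 3680 FPKM in Cu 1 and 3, a difference of -0.38 (standard error 0.25). LIG1, the DNA ligase of replication, was at 1.40 and 2.40 FPKM in Control 1 and 2 against 7.83 and 2.18 FPKM in Cu 1 and 3. Its difference of 0.89 (standard error 0.57) rested on Cu 1, without which it was 0.15. Cofactors of de novo methylation had 7 tested genes of 9 and a median of 0.068. KDM1B, the histone demethylase that prepares imprinted regions in mouse oocytes, was at 16.1 and 14.9 FPKM in Control 1 and 2 against 12.2 and 20.1 FPKM in Cu 1 and 3, which overlapped. EHMT1, a histone H3 lysine 9 methyltransferase, was at 2.19 and 2.18 FPKM in Control against 4.53 and 3.44 FPKM in Cu, a difference of 0.64 (standard error 0.36).

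Genes that protect or are linked to imprints had 8 tested members of 10 and a median of 0.45, with 4 separated upward, beside 25.4% of all tested genes. Without Cu 1 the median was 0.026, and without Cu 3 it was 0.88. ZFP57, the zinc finger protein that holds methylation at imprints, had no values in the table. NLRP7, a maternal gene tied in women to failed imprinting, was at 10.1 and 14.2 FPKM in Control 1 and 2 against 107 and 15.6 FPKM in Cu 1 and 3. Its difference of 1.70 (standard error 0.85) came down to 0.35 without Cu 1. The authors' means for NLRP7 were 13.7 for Control and 53.7 for Cu. PADI6, a protein of the oocyte lattices, was at 82.0 and 63.1 FPKM in Control against 219 and 46.6 FPKM in Cu, and its difference of 0.49 (standard error 0.70) was -0.62 without Cu 1. Readers of methylated CpG had 4 tested genes of 9 and a median of 0.11. ZBTB33, also called KAISO, was the most abundant reader, with 54.8 and 61.2 FPKM in Control 1 and 2 against 45.4 and 39.9 FPKM in Cu 1 and 3, a difference of -0.44 (standard error 0.30). Partners of the TET enzymes had 7 tested genes of 11 and a median of 0.054. DCAF1, a substrate receptor of the CRL4 ubiquitin ligase that acts on TET proteins, was at 26.5 and 26.9 FPKM in Control 1 and 2 against 28.8 and 12.5 FPKM in Cu 1 and 3, which overlapped. CUL4A, the scaffold of that ligase, was at 0.91 and 1.15 FPKM in Control against 2.94 and 1.46 FPKM in Cu, a difference of 0.62 (standard error 0.38) that was 0.28 without Cu 1 and 0.96 without Cu 3.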

How the data were processed

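RNA from pools of 3 oocytes was amplified by Smart-seq2 and sequenced. The methods name SOAPnuke, HISAT2, Bowtie2 and RSEM, whereas the submitters' processing notes name TopHat2 2.0.13, Cufflinks 2.2.1 and the build Sscrofa11.1, so which tools made the table is not settled. The authors deposited FPKM rounded to 2 decimals, and their mean FPKM per group, used only as such. Whether counting used strand is not given in the sources used here. Coordinates were read from RefSeq (Sscrofa11.1), in which all 9 identifiers were found.

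Of 30684 rows 16050 held values. On log2(FPKM + 1), 8541 genes, those reaching 1 FPKM in at least 2 libraries, were tested in R 4.3.3 by limma 3.58.1 (eBayes with a variance trend, Benjamini-Hochberg adjustment over all of them), in place of the count test of the methods. The function was tested on simulated data. Nothing says that the libraries of a group came from separate animals, so p-values measure the spread between these libraries, which may be technical. The 9 genes and the lists were chosen with earlier results of these data known. Named from each list were the most abundant gene, the gene with the largest difference and those past an unadjusted p of 0.05. NEIL1, NEIL2, SMUG1, MBD4, UHRF2, DNMT3L and ZFP57 were named after their values were seen.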

Additional observations from a re-analysis of the deposited data

How the results depend on the processing

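Of the 7 tested genes, none passed an unadjusted p of 0.05 under any of the 11 alternatives run on the fit. DNMT1, DNMT3B, TET2, TET3 and UHRF1 kept their direction in all of them, and DNMT3A and DPPA3 did not. Dropping the filter or the variance trend cannot change a difference, and the 4 other scalings lowered the median of all tested genes. Direction was therefore tried mainly by leaving out libraries. Leaving out each library in turn, DNMT3A ranged from -0.54 to 0.46, and it was 0.089 by the authors' means. DPPA3 ranged from -0.38 to 0.087, and it was -0.19 by the authors' means. Without the filter on low values 1 of the 9 genes, TET1, passed the unadjusted limit. So did 826 of all genes in that fit, which covered the 16050 genes less 491 at 0 in every library. Libraries were separated in 4 of the 7 genes after median-of-ratios and after upper-quartile scaling, and in 3 to 6 with each library left out. With a library left out, a lone library is set against a pair, which is separated by chance more often than pair against pair. The share of all tested genes separated under these settings was not determined. Whether the 7 genes were separated more often than other genes therefore cannot be read from these counts. Over all genes, 477 higher and 122 lower genes passed the unadjusted limit, and the lower genes were 238 without the filter, 275 after median-of-ratios, 298 after upper-quartile scaling and 305 after quantile normalization, when 352 were higher. With each library left out, the limit was passed by 127 to 2958 genes, 112 to 2368 higher and 15 to 590 lower, and an adjusted p of 0.05 by 0 to 1755. The high counts came from leaving out a Cu library, when the spread was taken from the Control libraries alone and the lone Cu library was assumed to vary like them. In the lists, KDM1B changed sign to -0.048, -0.21, -0.17 and -0.19 under scaling to equal sums, median-of-ratios, upper-quartile and quantile normalization. By left-out library, KDM1B ranged from -0.32 to 0.36, PADI6 from -0.62 to 1.60 and DCAF1 from -1.04 to 0.11. NEIL3, PARP1, MTR, TRDMT1 and TYMS passed the unadjusted limit in 8, 7, 7, 9 and 5 of 11 alternatives. The sums of the TET and DNMT genes under other scalings were added after seeing the data. No count-based test was run, as FPKM are not counts. No paired analysis was possible because the groups share only replicate number 1. The depth is unknown, so how precisely TET1, TET2 and TDG were measured is unknown too.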
